A study of Vitis vinifera with 6 samples.

Results

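In young leaves of grapevine, 60 genes read far from the controls on the arrays labelled OXNAC33 replicates 1 and 3, where *VviNAC33* was high, and inside the control range on the array labelled OXNAC33 replicate 2, where it was low. Of these, 17 were higher and 43 lower on the arrays with high *VviNAC33*. They were chosen from 21536 genes by their levels on the same 6 arrays. A member had to lie at least 1.5 log2 units above the highest control, or below the lowest, on both OXNAC33 replicates 1 and 3, and within the range of the 3 controls on replicate 2. A distance of 1.5 log2 units is a 2.83-fold difference. *VviNAC33* itself (VIT_19s0027g00230) was left out. The direction and the size of the members' differences are therefore descriptions, and no test was made of them.

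The 6 single-colour arrays carried leaf RNA of *Vitis vinifera* cv Shiraz. The 3 OXNAC33 arrays came from plants stably overexpressing *VviNAC33* and the other 3 from control plants. The labels place the sampling at the start of the phenotype, and the text of the study places it earlier, before any phenotype could be seen. According to the methods of the study, the construct was driven by the constitutive promoter of cauliflower mosaic virus, RNA came from pools of young leaves, and independent transgenic lines served as the OXNAC33 replicates. The labels number these arrays without naming the line, and they do not say which plant gave each control. Each line derives from a separate transformation, so that a line and its *VviNAC33* level cannot be told apart.

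NAC proteins are plant transcription factors that share a conserved DNA-binding domain, and several of them promote leaf senescence in *Arabidopsis thaliana*, among them ORE1. During senescence the chloroplast is dismantled, chlorophyll and its binding proteins are broken down, and the released nitrogen and carbon are carried to other organs. NAC genes often act in chains, in which a NAC protein activates the genes of further NAC proteins.

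Levels are given as the log2 of the processed intensity minus the 75th percentile of the array, so that a value of 0 marks the 75th percentile and a difference of 1 is a doubling. *VviNAC33* read -5.22, -4.14 and -4.01 on control replicates 1, 2 and 3. It read -0.54 on OXNAC33 replicate 1 and -0.998 on OXNAC33 replicate 3, which were 3.92 and 3.46 above the control mean. On the array labelled OXNAC33 replicate 2 it read -3.89, only 0.12 above the highest control. *VviNAC33* was thus well separated from the controls on both other OXNAC33 arrays, and on the array labelled replicate 2 its level did not check the label. The study selected the lines with the highest *VviNAC33* expression in quantitative PCR and reported the line OX2 as the highest. Its methods say that the arrays used the RNA isolated for quantitative PCR. The low level on this array thus differs from what the study reports for its lines, whichever line the array carried. The labels do not tie this array to a line, so that they do not settle why its level was low.

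The array labelled OXNAC33 replicate 2 did not read like a control for most genes that moved on the other OXNAC33 arrays. Replicates 1 and 3 both lay past the distance of 1.5 for 262 genes above the controls (1.22% of the genes kept) and for 576 below (2.67%). Of the 262, replicate 2 was also past that distance for 70, past the controls by less for 174, within the control range for 17 and below the lowest control for 1. Of the 576, it was past the distance for 166, past the controls by less for 359, within their range for 43 and above the highest control for 8. The members are the 17 and the 43, or 7.16% of the 838 genes. For comparison, replicate 2 lay within the control range for 30.8% of all genes kept, replicate 1 for 25.3% and replicate 3 for 24.6%. The 17 and 43 members are 0.0789% and 0.200% of all genes kept. Since these shares restate the rule, nothing was read from them.

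**Figure D1:**
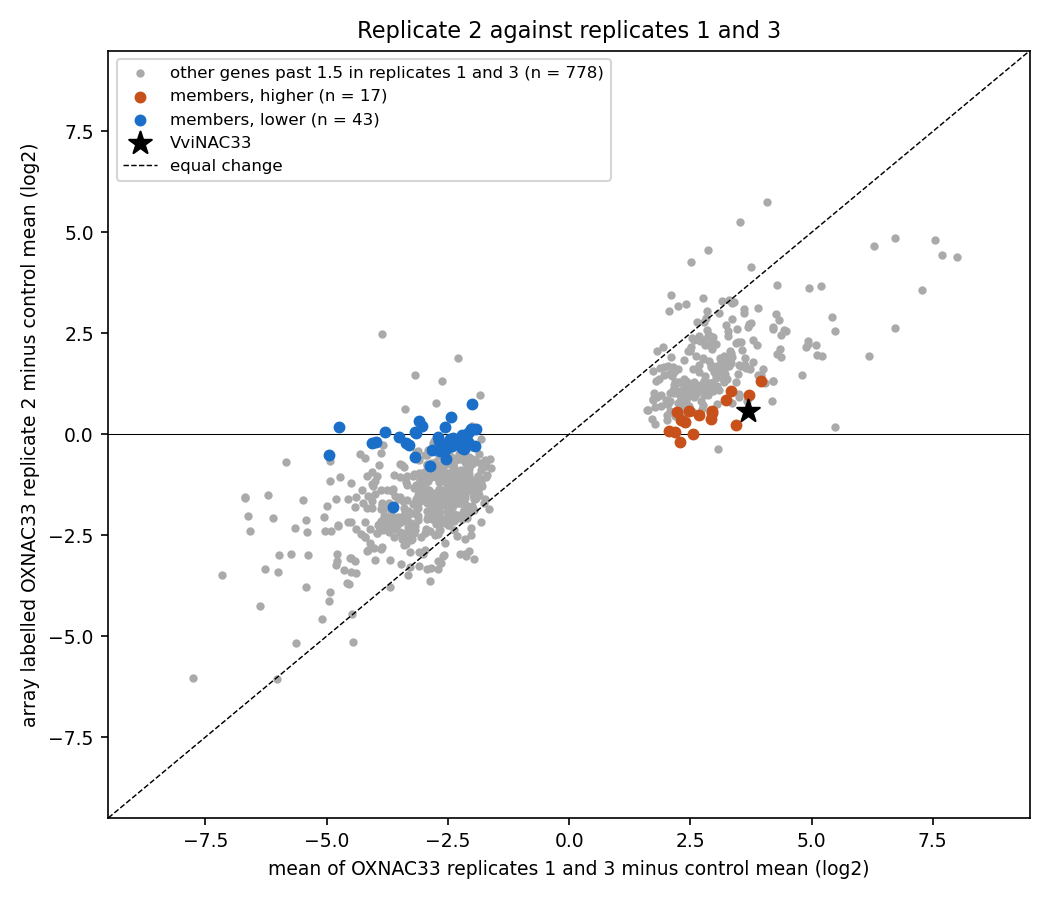
Difference from the control mean on the array labelled OXNAC33 replicate 2 (y axis, log2 units) against the mean difference of OXNAC33 replicates 1 and 3 (x axis, log2 units), for the 838 genes past 1.5 on both of the latter. Coloured points are the 17 higher and 43 lower members, the star is *VviNAC33* and the dashed line marks equal change. Most grey points keep the sign of replicates 1 and 3 on replicate 2, as do 16 higher and 30 lower members. The members lie within their control range on replicate 2, as the rule required, at -1.81 to 1.31 from the control mean.

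The same rule was applied with the OXNAC33 arrays exchanged, as a description of the other arrays. With replicate 1 as the array within the control range, 408 genes were past the distance on both other arrays, and 18 of them, all higher, lay within the control range on replicate 1. With replicate 3 in that place, the numbers were 279 and 3. The numbers of genes past the distance below the controls on a pair of OXNAC33 arrays also differed. Of these genes, 43 of 576 were at the control level on the remaining array for replicate 2. The count was 0 of 218 for replicate 1 and 1 of 182 for replicate 3. Above the controls, the counts were 17 of 262 for replicate 2, 18 of 190 for replicate 1 and 2 of 97 for replicate 3. In limma, which compared all 3 OXNAC33 with all 3 control arrays, 1200 of 23907 probes were called at an adjusted p under 0.05 (5.02%). This is given as background, without the results of the members, because the rule used the same contrast.

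**Figure D2:**
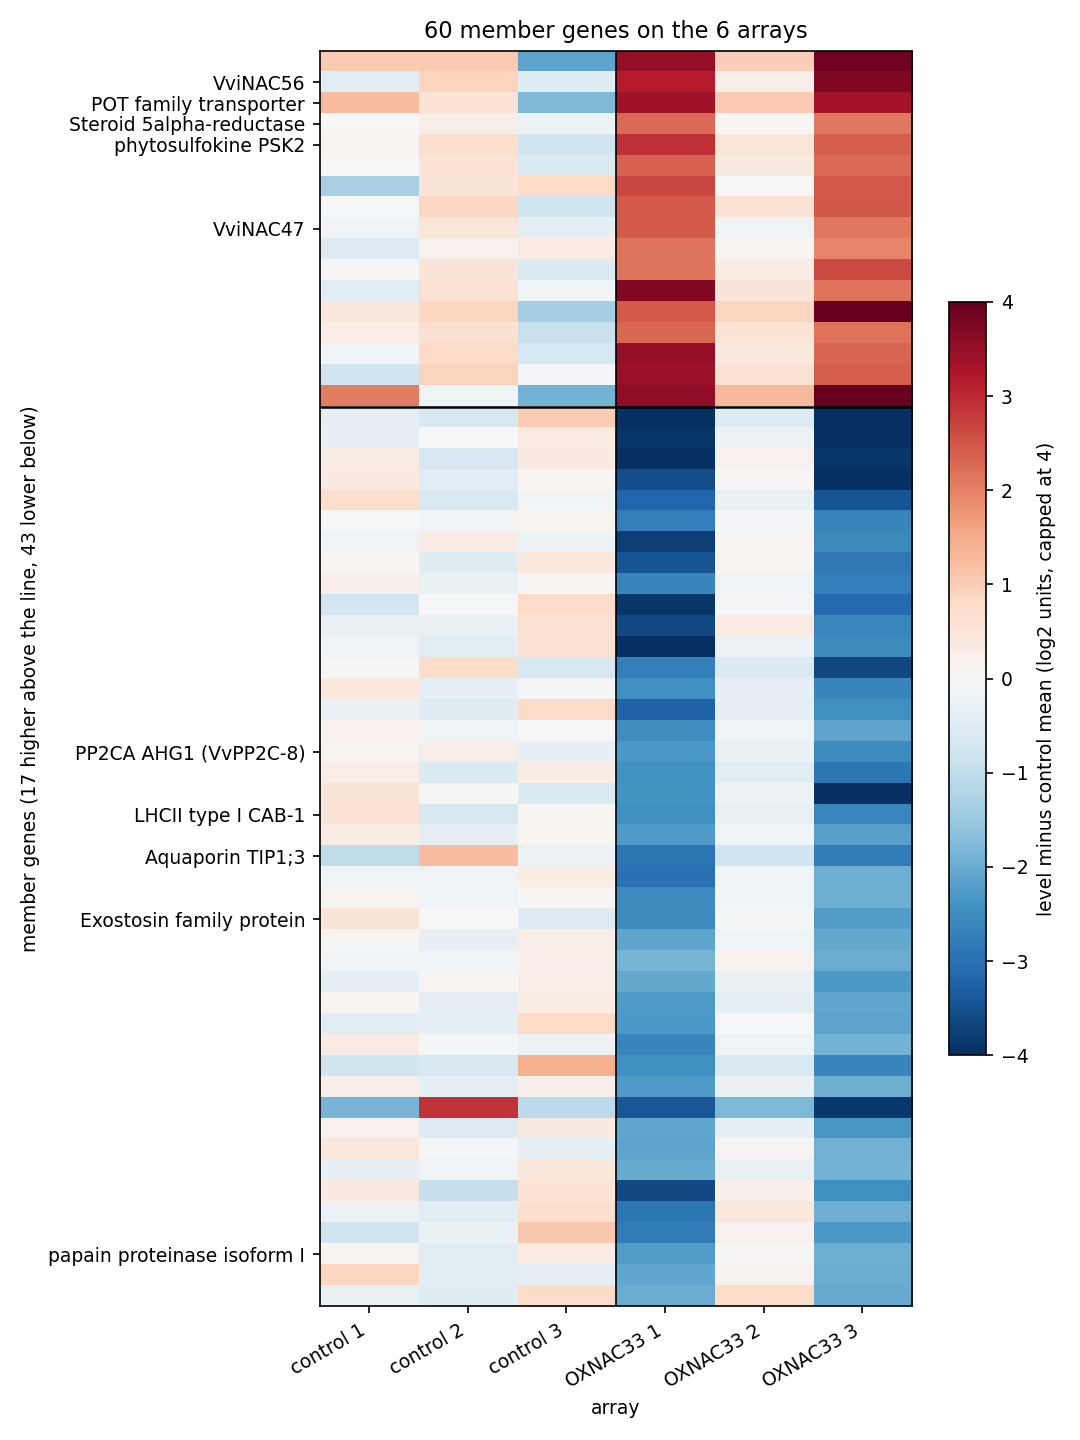
Level of each of the 60 members minus its control mean (colour, log2 units, capped at 4) on the 6 arrays (columns), with the 17 higher members above the black line and the 43 lower below, each ordered by distance from the nearest control. The columns of OXNAC33 replicates 1 and 3 are saturated in colour and that of replicate 2 is as pale as the controls, which is what the rule selects.

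The higher members included 2 genes of the NAC family. *VviNAC56* (VIT_07s0005g03610) read -5.94, -4.64 and -6.00 on the controls, -2.39 and -1.78 on OXNAC33 replicates 1 and 3, and -5.28 on replicate 2. The mean of replicates 1 and 3 was 3.44 above the control mean (10.9-fold), against a control SD of 0.77 (n = 3). Of the controls, 2 were well above background, and with another background correction (normexp) the difference was 1.17. *VviNAC47* (VIT_04s0044g01500) read -3.17, -2.56 and -3.38 on the controls, -0.59 and -0.92 on OXNAC33 replicates 1 and 3, and -3.22 on replicate 2. Its difference was 2.28 (4.86-fold, control SD 0.43), and 1.29 with normexp. For both genes, replicate 2 lay between the controls, at 0.24 from their mean for *VviNAC56* and at -0.18 for *VviNAC47*.

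The other NAC genes at least 1.5 above the controls on replicates 1 and 3 were above them on replicate 2 as well. The rule placed them outside the control range there, since inside it they would have been members, but it did not set the side. The study listed 73 NAC genes, 47 of which were kept besides *VviNAC33*. Of the 47, 6 lay at least 1.5 above the controls on both replicates 1 and 3, 2 of them being the members, and 0 lay that far below. The shares over all genes kept were 1.22% above and 2.67% below. *VviNAC26* (VIT_01s0026g02710) read -1.93, -0.94 and -2.36 on the controls, and 3.16, 1.09 and 2.03 on OXNAC33 replicates 1, 2 and 3. Its level on replicate 2 was 2.02 above the highest control, where *VviNAC33* was only 0.12 above. *VviNAC39* (VIT_07s0031g02610) read -0.49, 0.41 and -0.67 on the controls and 2.28, 3.13 and 2.75 on the OXNAC33 arrays, so that replicate 2 was the highest of all. *VviNAC11* (VIT_14s0108g01070) and *VviNAC30* (VIT_19s0027g00870) lay 1.18 and 0.32 above the highest control on replicate 2. Replicate 2 was thus the lowest OXNAC33 array for *VviNAC26*, *VviNAC11* and *VviNAC30*, as it was for *VviNAC33*, but it lay above every control. In *VviNAC56* and *VviNAC47* it lay between the controls, because the rule required it. Over the 47 genes, the median difference from the control mean was 0.52, 0.36 and 0.32 on OXNAC33 replicates 1, 2 and 3, beside 0.04, -0.05 and -0.06 over all genes kept.

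**Figure D3:**
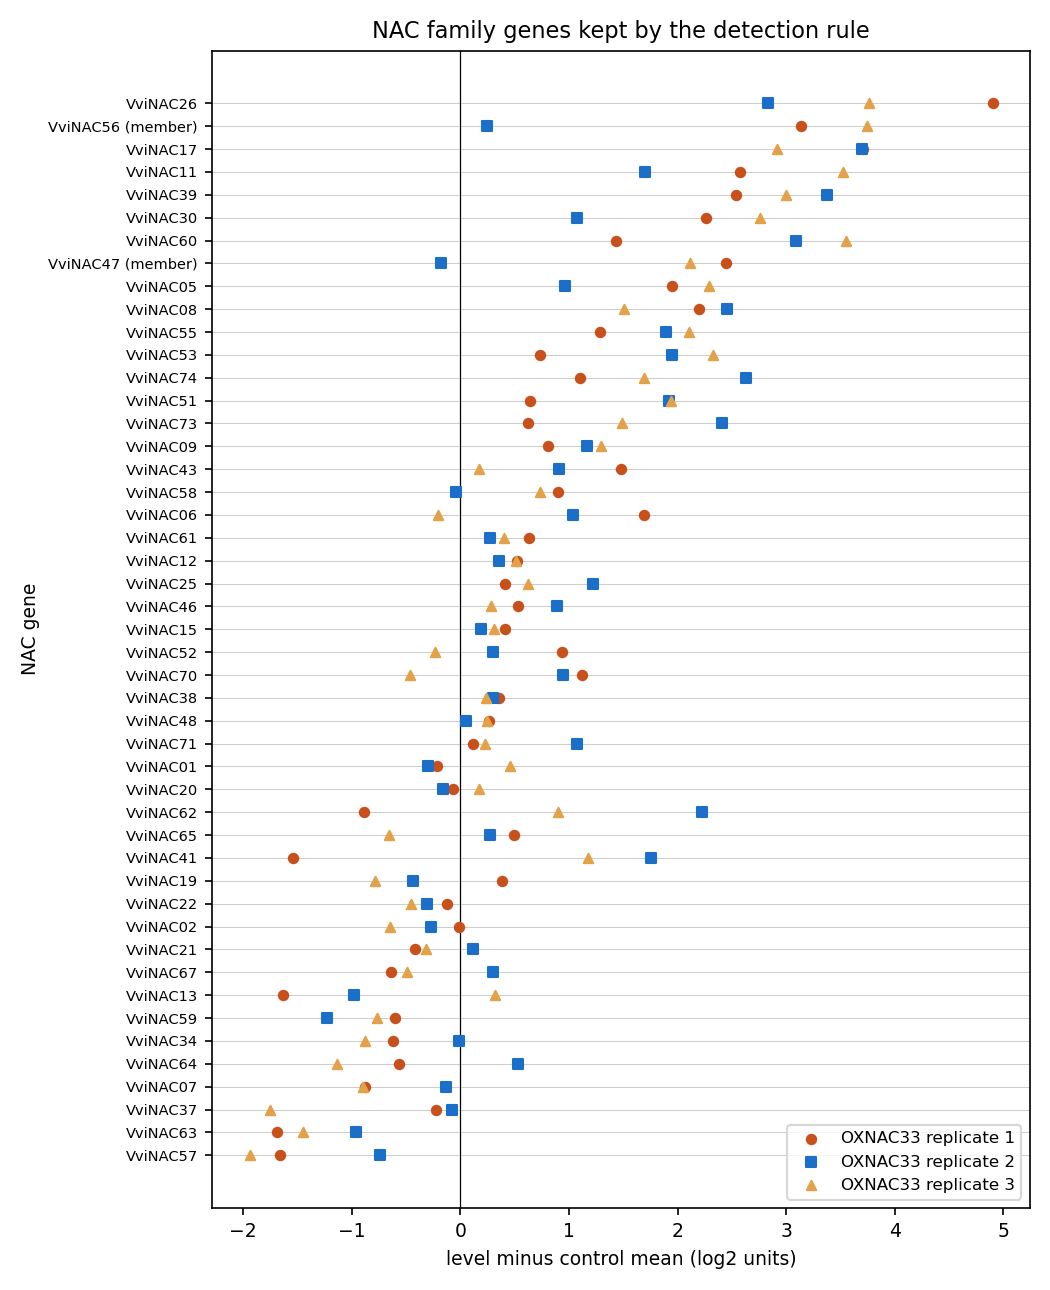
Difference from the control mean (x axis, log2 units) of the 47 NAC genes kept (y axis), on OXNAC33 replicate 1 (circles), replicate 2 (squares) and replicate 3 (triangles). In *VviNAC56* and *VviNAC47* the square lies near 0 and far from both other symbols, whereas in *VviNAC26* and *VviNAC39* all 3 symbols lie above 2.5.

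A peptide hormone gene, a transporter gene and a gene of steroid metabolism completed the annotated higher members. *PSK2* (VIT_03s0088g00290) encodes a precursor of phytosulfokine, a small secreted peptide that promotes cell growth. It read -0.77, -0.16 and -1.67 on the controls, 2.05 and 1.57 on OXNAC33 replicates 1 and 3, and -0.38 on replicate 2. The difference between replicates 1 and 3 and the control mean was 2.68 (6.39-fold, control SD 0.76), and replicate 2 lay 0.48 above that mean. Among 5 phytosulfokine genes with a name in the study's tables, *PSK2* was the only gene above all controls on replicates 1 and 3. *PSK1* (VIT_08s0007g03870) read -4.07, -4.10 and -4.41 on the controls and -4.72, -3.81 and -4.66 on OXNAC33 replicates 1, 2 and 3. A phytosulfokine receptor gene (VIT_19s0014g02360) read -3.58, -3.56 and -3.66 on the controls and -5.17, -4.21 and -5.27 on the OXNAC33 arrays. On replicates 1 and 3 the peptide gene *PSK2* was thus high where *PSK1* and this receptor gene were below every control.

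The transporter gene (VIT_02s0012g01160) belongs to the proton-dependent oligopeptide transport (POT) family, whose plant members carry nitrate, peptides or hormones. It read -2.92, -3.65 and -5.98 on the controls, -0.83 and -0.85 on OXNAC33 replicates 1 and 3, and -3.12 on replicate 2. Its control SD of 1.60 was the largest among the annotated members, set by the low control replicate 3. The difference was 3.34 (10.1-fold), and 1.73 with normexp. It was 2.44 without control replicate 3 and 3.97 without control replicate 1. Of 12 nitrate and peptide transporter genes with a name in the study's tables, 4 lay past the distance above the controls on both replicates 1 and 3. Of these 4, only this gene was at the control level on replicate 2, which is what made it a member. The nitrate transporter gene *NTP3* (VIT_12s0059g01240) read 2.83, 3.09 and 2.28 on the controls, and 5.25, 4.79 and 5.19 on OXNAC33 replicates 1, 2 and 3. It was therefore high on all 3 OXNAC33 arrays.

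The steroid 5alpha-reductase gene (VIT_13s0067g01830) is named for a family whose *A. thaliana* member DET2 acts in brassinosteroid synthesis. It had the narrowest controls of the annotated higher members, at -3.24, -2.98 and -3.44, and read -0.94 and -1.12 on OXNAC33 replicates 1 and 3. On replicate 2 it read -3.16, which is 0.06 above the control mean, against a difference of 2.19 (4.56-fold) on the other arrays. With normexp the difference was 1.25.

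Of the 17 higher members, 12 had no name in the study's tables. The largest distance belonged to VIT_11s0037g00590, which read -3.05, -3.07 and -6.21 on the controls, -0.59 and -0.21 on OXNAC33 replicates 1 and 3, and -3.14 on replicate 2. VIT_02s0012g02650 was next, with -3.14, -2.57 and -3.67 on the controls, -0.76 and -0.87 on replicates 1 and 3, and -2.77 on replicate 2. In the mean of replicates 1 and 3, the first lay 3.72 and the second 2.31 above the control mean. For the first, the difference was 2.66 without control replicate 3 and 2.28 with normexp, and for the second it was 1.53 with normexp. The member nearest to the distance of 1.5, VIT_11s0016g04930, was 1.503 above the highest control, and its controls ranged from -6.84 to -2.89. The nearest gene outside, *OFP7* of the ovate family (VIT_18s0001g12310), was 1.45 above. Within 0.1 of the distance lay 6 members on the inner side and 2 genes on the outer side.

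The lower members included a gene for a chlorophyll-binding protein of the antenna of photosystem II. *LHCII type I CAB-1* (VIT_07s0005g02220) read 7.64, 6.43 and 7.18 on the controls, 4.63 and 4.46 on OXNAC33 replicates 1 and 3, and 6.78 on replicate 2. Replicates 1 and 3 were on average 2.53 below the control mean (5.79-fold, control SD 0.61), while replicate 2 was between the controls. This was also the only member among 222 kept genes that the study called lower in a separate experiment, in which *VviNAC33* was expressed transiently in cv Sultana. Of these 222, 22 lay past the distance below the controls on both replicates 1 and 3 and 0 above. Over all genes kept, 2.67% lay past it below and 1.22% above.

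The other 3 light-harvesting genes with a name in the tables lay closer to their controls. *LHCB3* (VIT_00s0181g00180), for another antenna protein of photosystem II, read 3.65, 3.43 and 3.89 on the controls, 2.56 and 2.93 on OXNAC33 replicates 1 and 3, and 3.97 on replicate 2. It was below every control on replicates 1 and 3 and above them on replicate 2, but not by 1.5. *LHCA1* (VIT_13s0019g04140), of the antenna of photosystem I, read 6.47, 6.07 and 5.92 on the controls and 6.23, 6.13 and 5.53 on OXNAC33 replicates 1, 2 and 3, so that only replicate 3 left the control range. *LHCA5* (VIT_18s0001g10550) lay above the controls on all OXNAC33 arrays, by 0.58, 0.45 and 0.64 from their mean. Over 18 genes whose names hold the words photosystem, light-harvesting or ribulose, the median differences were 0.56, 0.17 and -0.22 on OXNAC33 replicates 1, 2 and 3, and 0 of them was a member (*CAB-1* is not named by these words). Their median level was 0.60 to 1.32 above the 75th percentile on the 6 arrays, the control and OXNAC33 arrays alike. With no other tissue on the arrays, this level does not check the labelled leaf tissue.

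Of the other annotated lower members, 1 was well above background on all 6 arrays. The exostosin family gene (VIT_18s0122g01400) belongs to a family of glycosyltransferases that includes xyloglucan galactosyltransferases of the cell wall. It read -0.74, -1.26 and -1.80 on the controls, -3.81 and -3.52 on OXNAC33 replicates 1 and 3, and -1.35 on replicate 2. The difference was -2.40 (5.26-fold lower), and -1.85 with normexp, and replicate 2 was 0.09 from the control mean. Of 13 exostosin genes with a name in the tables, 12 lay below all controls on replicate 1, 10 on replicate 2 and 13 on replicate 3. The xyloglucan galactosyltransferase gene *KATAMARI 1* (VIT_05s0062g00960), for example, read -1.46, -1.60 and -1.10 on the controls and -4.62, -2.75 and -3.54 on the OXNAC33 arrays. Names were available mainly for genes that the study had selected, in part on these samples, so shares of named genes are no measure of a family.

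The remaining annotated lower members were dim on OXNAC33 arrays, and they were chosen for description after their values were seen. *PP2CA AHG1* (VIT_16s0022g02210) encodes a protein phosphatase, whose *A. thaliana* counterpart restrains the response to abscisic acid. It read -4.28, -4.15 and -4.72 on the controls and -4.66 on replicate 2, against -6.67 and -6.93 on replicates 1 and 3, the former not well above background. The related *PP2CA AHG3* (VIT_13s0019g02200) read above the controls on all OXNAC33 arrays, with 1.81, 1.89 and 2.38 on the controls and 3.40, 3.59 and 3.51 on replicates 1, 2 and 3. The aquaporin gene *TIP1;3* (VIT_06s0004g04120), for a water channel of the vacuole membrane, read -4.69, -2.43 and -3.91 on the controls, -6.59 and -6.49 on replicates 1 and 3, and -4.47 on replicate 2. It was not well above background on replicate 1, and control replicate 1, the lowest control, was 1.80 above OXNAC33 replicate 3. With normexp the differences of *PP2CA AHG1* and *TIP1;3* were -1.13 and -1.44, where they had been -2.42 and -2.86, and without control replicate 2 that of *TIP1;3* was -2.24. These means include the dim reading of replicate 1. On replicate 3, where both genes were well above background, they lay -2.55 and -2.81 from the control mean. A papain cysteine proteinase gene (VIT_16s0098g00930) was not well above background on replicates 1 and 3. On replicate 1 the lowest signal well above background, -5.87, was above the control mean of the gene, -5.90, so that no fold is given.

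**Figure D4:**
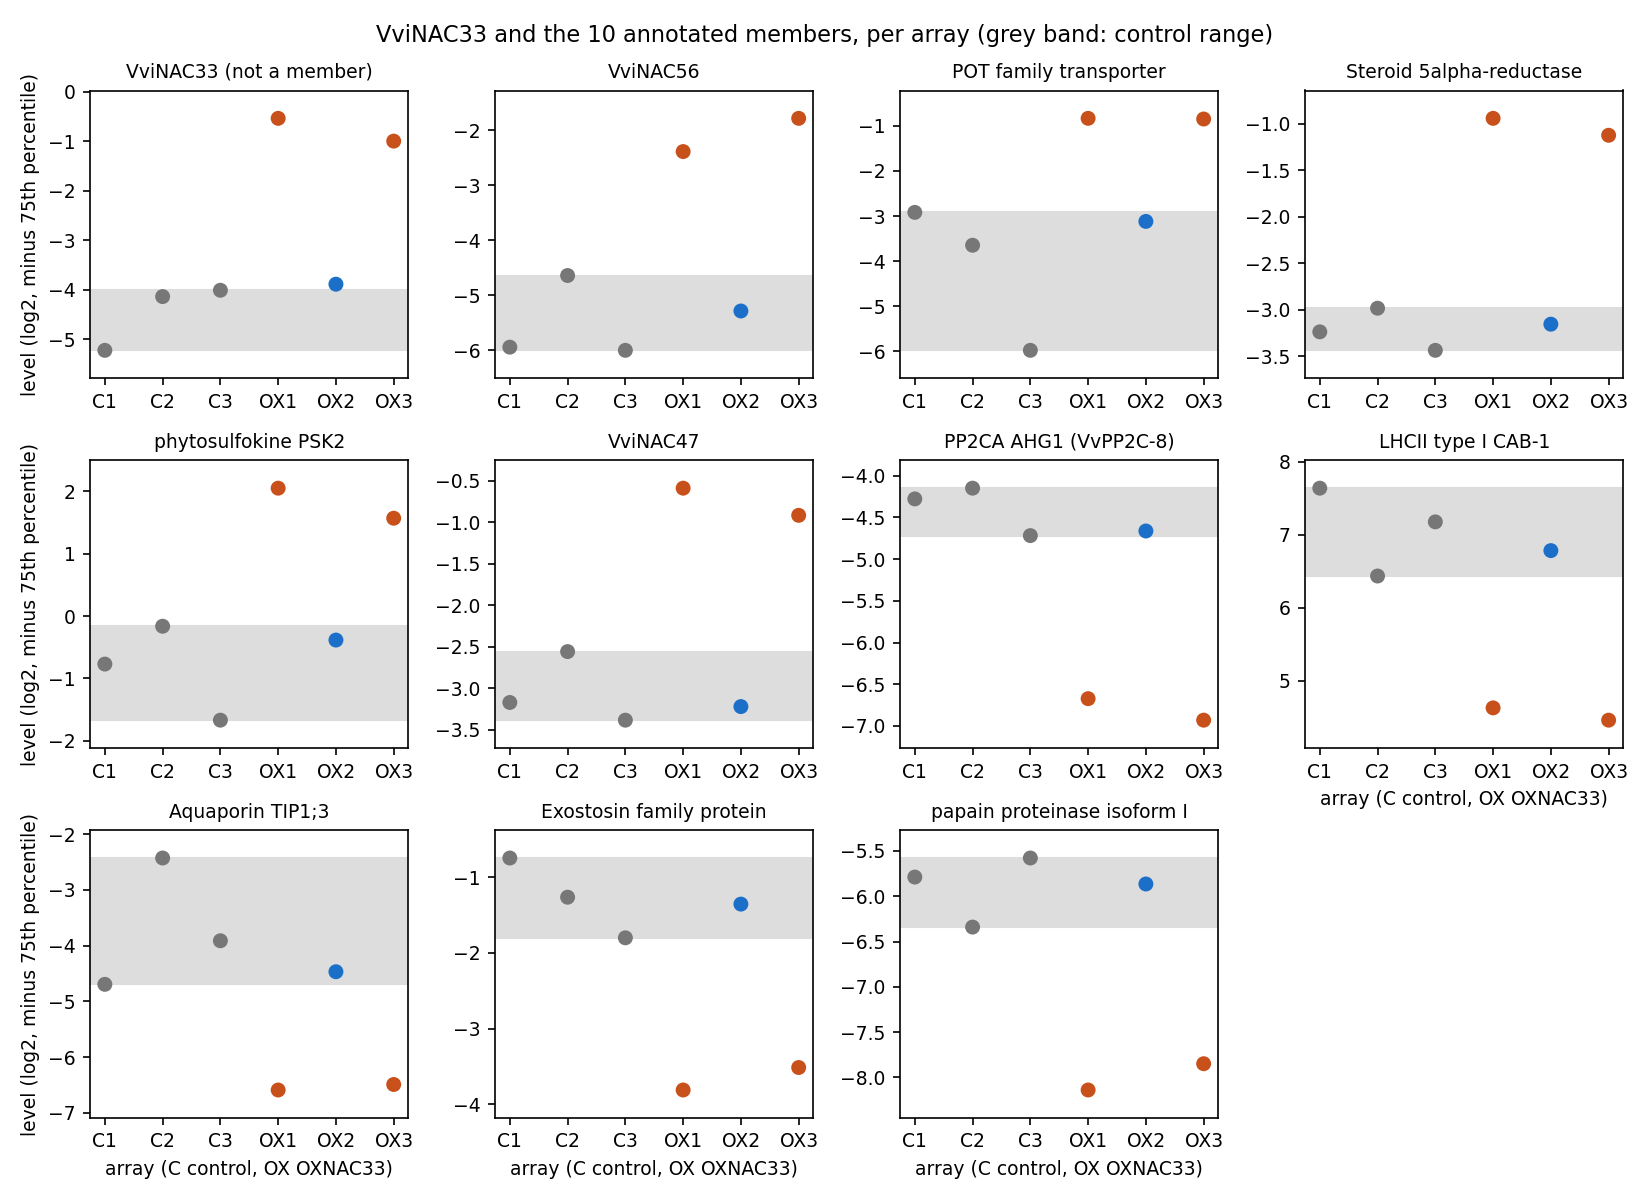
Level of *VviNAC33* and of the 10 annotated members (y axes, log2 units from the array's 75th percentile, each with its own scale) on control arrays C1 to C3 (grey), OXNAC33 replicates 1 and 3 (orange) and replicate 2 (blue). The grey band is the control range, inside which the blue point falls for every member and just above which it falls for *VviNAC33*.

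Of the 43 lower members, 38 had no name in the tables, and the largest differences were among them. VIT_02s0025g01770 read -1.33, -1.61 and 0.04 on the controls, -6.65 and -5.20 on OXNAC33 replicates 1 and 3, and -1.47 on replicate 2. The gene was not well above background on replicate 1, so that the mean difference of -4.96 (-2.97 with normexp) includes a dim reading. On replicate 3 alone the difference was -4.23. VIT_18s0001g10350 was well above background on all 6 arrays, with 2.20, 2.55 and 2.85 on the controls, -1.36 and -1.56 on replicates 1 and 3, and 2.34 on replicate 2. Its mean was 15.9-fold lower. The gene with the next identifier, VIT_18s0001g10360, was also a member and was chosen for description for that reason. It read 2.33, 2.36 and 2.80 on the controls, -0.49 and 0.55 on replicates 1 and 3, and 2.39 on replicate 2. These were the only members whose identifiers lay within 100 of each other on a scaffold, where identifiers rise in steps of 10. As a share this is 3.33% of the members, beside 3.36% of the other genes kept that had a member this near.

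At the threshold, the lower member VIT_13s0067g01690 was 1.51 below the lowest control. The nearest gene outside, VIT_02s0025g01920, was 1.46 below it, with 0.95, 0.36 and 1.19 on the controls, -2.89 and -1.10 on replicates 1 and 3, and 0.89 on replicate 2. Within 0.1 of the distance lay 11 lower members inside and 6 genes outside. The smaller distance of a member ranged from 1.503 to 2.46 in the higher and from 1.51 to 3.59 in the lower direction, with 3 and 14 members past 2.

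The rule asked nothing about the order of OXNAC33 replicates 1 and 3, and *VviNAC33* was 0.46 higher on replicate 1. Replicate 1 was farther from the control mean than replicate 3 for 11 of the 17 higher and 27 of the 43 lower members. The median of replicate 1 minus replicate 3 was 0.14 in the higher and -0.12 in the lower members. Among the genes for which replicate 2 was also past the distance, replicate 1 was the farther array for 22 of 70 higher and 36 of 166 lower genes. In those genes, replicate 3 was thus more often the extreme array. Among all genes past the distance on replicates 1 and 3, replicate 1 was the farther for 114 of 262 higher and 208 of 576 lower genes. Over all genes kept, replicate 1 was the farther for 10228 of 21536.

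Nor did the rule use the order of the controls. Control replicate 1, which had the lowest *VviNAC33* level, was the lowest control for 4 of the 17 higher members and the highest for 13 of the 43 lower members. Over all genes kept it was the lowest for 7330 and the highest for 7430 of 21536.

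The controls of the higher members were widely spread, with a median range of 1.505 and a span from 0.45 to 3.95, beside 1.05 for all genes past the distance above the controls and 0.47 for all genes kept. In the lower members the median range was 0.86 and the widest 4.77. All genes past the distance below the controls had a median range of 0.81. A wide range leaves more room for replicate 2 inside it. Replicate 2 was less than 0.5 from the control mean for 9 of the 17 higher and 37 of the 43 lower members, and on the side of replicates 1 and 3 for 16 and 30.

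By detection, 13 of the 17 higher and 29 of the 43 lower members were well above background on all 6 arrays. All 60 were well above background on replicate 2. Of the lower members, 5 were dim on both replicates 1 and 3 and 9 on replicate 1 alone. Readings not well above background thus enter the order of these arrays in the lower members.

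Scan times in the headers put control replicate 1 and OXNAC33 replicates 1 and 2 in a single session, and the other arrays in a second. Within the first session, replicate 1 minus control replicate 1 had a median of 2.49 in the higher and -2.69 in the lower members. Replicate 2 minus the same control had medians of 0.38 and -0.14, with ranges of -0.74 to 1.37 and -0.98 to 1.04. Within the second session, replicate 3 minus the mean of control replicates 2 and 3 had medians of 2.30 and -2.48. These differences follow from the rule, which fixed where each array had to lie, and nothing was read from them.

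Most members were in none of the gene lists of the study. None of the 60 was among 129 kept putative direct targets of VviNAC33 or 79 kept auxin genes, both chosen in part on these samples. The count was also 0 for 109 kept genes called higher in the transient experiment and for 23 kept genes of the list nearest to *VviNAC33* in an atlas of organs. The members are 0.279% of all genes kept, so that a count of 0 in lists of this length says little. For the putative targets and the auxin genes, the count also depended on the rule. The study chose genes from the stable lines by comparing all OXNAC33 with all control arrays, and the rule places replicate 2 among the controls. How far this set the counts was not tested. Of the 129 putative targets, 3 lay past the distance above and 14 below the controls on both replicates 1 and 3. Over all genes kept, the shares were 1.22% above and 2.67% below. The targets were chosen in part on these arrays, so nothing was read from these counts. For the auxin genes, the median difference was -0.80, -0.57 and -1.01 on OXNAC33 replicates 1, 2 and 3. The auxin list was chosen in part on these arrays, replicate 2 included, so nothing was read from the side of the replicate 2 median.

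Among the members, 5 (8.33%) had a functional class in the study's tables, beside 2955 of the genes kept (13.7%). Of the 5, 2 were in the class Transport, which holds 370 of the 2955. The others were 1 each in Generation of Energy, Response to Hormone Stimulus and Cellular Process.

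The array labelled OXNAC33 replicate 2 also stood apart in genes that were no members. Of 28 kept genes named for defence proteins, 22 were above all controls on replicate 2, 5 below and 1 within their range. Over all genes kept, replicate 2 lay within the range for 30.8%, and the share above it was not computed. The median difference of the 28 was 2.01, beside -0.65 and 0.94 on replicates 1 and 3. The 28 include 10 genes for stilbene synthase, the enzyme of resveratrol synthesis, whose near-identical sequences a probe may not tell apart. All 10 were above all controls on replicate 2. Their median difference was 5.12 on replicate 2, -0.80 on replicate 1 and 0.94 on replicate 3. Whether this difference between the arrays bears on the members was not tested.

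The number of members rested on single arrays. Without control replicate 2 the rule found 9 higher and 26 lower genes, 6 and 21 of them members. Without OXNAC33 replicate 1 it found 28 and 128, and without OXNAC33 replicate 3 it found 75 and 116.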

How the data were processed

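Deposited scanner files of 6 Agilent arrays were used, with the processed intensity on a linear scale and 0 or 1 flags, both as the authors deposited them from Feature Extraction 10.5.1.1. The intensity had been corrected for background there but not scaled between arrays. The other deposited values, a value table, are the same intensities times a constant per array, and served as an alternative. The log2 of each intensity was taken, and the array's 75th percentile was subtracted. Of 34369 probes, 29798 carried VIT_ identifiers, and 21536 were kept, which all 3 arrays of a group showed well above background and which had no outlier flag on any array. The share of probes well above background was 69.4% to 74.9% per array, with 0 saturated. Precision is limited by the number of arrays.

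limma 3.58.1 (R 4.3.3, lmFit and eBayes, two-sided, Benjamini-Hochberg) gave the background only. By the methods of the study, the OXNAC33 samples came from independent lines. Whether the control samples came from separate plants is not fully stated, so the limma p-values measure the spread between these samples.

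The members, gene lists and keyword families were chosen with earlier results of these data known. Named genes are the annotated members well above background on all arrays, members in the study's lists, the unannotated members with the largest distance and the genes next to the threshold; further genes are said to be chosen after their values were seen, and the non-member genes named beside a member were chosen likewise. Names and classes come from the study's tables, which name 4253 of the genes kept. The RefSeq table matched 0 identifiers. Sequences and coordinates were not used here.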

Additional observations from a re-analysis of the deposited data

How the results depend on the processing

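Counts of members depended on the scaling and on single arrays, and the causes were not tested. The 17 higher members became 20 with quantile scaling, 21 with the array median, 16 with the 75th percentile over detected probes, 15 with normexp (5 of them shared) and 16 with the authors' values. The 43 lower members became 23 with quantile scaling, 27 with the array median and 16 with normexp (14 shared), but stayed at 43 with the 75th percentile over detected probes (38 shared) and were 38 with the authors' values. The array median moved the median difference of replicates 1 and 3 over all genes kept from 0.01 to 0.18 and normexp moved it to -0.20. Normexp was run on median spot signals and chosen after seeing the data, since no mean signal column was present.

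With a distance of 1 there were 58 higher and 88 lower members, with a distance of 2 there were 3 and 14, and with the control range widened by 0.5 there were 60 and 122. With OXNAC33 replicate 1 inside the controls there were 18 and 0, and with replicate 3 there were 2 and 1. Leaving out an array gave 9 to 75 higher and 26 to 128 lower members; without OXNAC33 replicate 2 the rule could not be applied. OXNAC33 replicate 1 was the farther array for 38 of 60 members, and for 18 of 31 with normexp. The 2 NAC members were 0 with normexp and 1 when all 6 arrays had to be well above background.

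For the background comparison, limma called 1200 probes, and 0 with normexp, without a filter or with a scan session block. With the replicate block it called 0, with 5997 unadjusted p-values under 0.05. The correlations of deviations between same-numbered arrays were 0.26, -0.22 and 0.19. With 3 arrays a group, split over scan sessions, they do not settle whether the numbers pair the samples. Leaving out an array gave 0 to 2554 calls. The methods' t-test past 1.5-fold gave 4436 calls unadjusted and 1 after adjustment. Over the alternatives, 0 differences of the 15 named members on replicates 1 and 3 changed sign, and 10 moved by more than the control SD, all with normexp. For replicate 2 minus the control mean, 12 values changed sign and 4 moved by more than the control SD.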

Other observations

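Chromosome 2, as read from the identifiers, held 9 of the 60 members (15.0%) beside 3.76% of the genes kept, and 4 of them, all lower, were on scaffold 0025 of that chromosome, which had 386 kept genes. This was noticed after the values were seen and was not tested. The higher member VIT_01s0026g02740, singled out for its place, has an identifier 3 steps from *VviNAC26* (VIT_01s0026g02710). It read -0.93, -0.25 and -0.09 on the controls, 1.72, -0.35 and 1.54 on OXNAC33 replicates 1, 2 and 3, and so was at the control level on replicate 2, where *VviNAC26* was not.

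Among 1691 kept probes without a VIT_ identifier, the rule found 2 higher and 1 lower (0.177%), beside 0.279% among VIT_ genes. Members were spread over the array surface, with 13 to 17 in each of 4 equal bands of rows and 14 to 16 in each of 4 bands of columns.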
